A study of Mus musculus with 10 samples.

Results

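Adult mouse collecting duct cells (adult mCD) were compared gene by gene with ureteric bud (UB) organoids after 20 days in culture, that is, mature tissue with progenitors kept in an expanding state. The genes compared were those with at least 10 reads summed over the 2 adult mCD libraries and the 2 day 20 libraries, which were 19166 of the 39273 genes in the deposited count table. The 4 libraries are part of a series of 10, with 2 libraries in each of 5 groups, and the model was fitted to all 10, so the spread was estimated jointly.

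During kidney development the UB grows out from the nephric duct and branches under the control of GDNF, which the surrounding mesenchyme secretes and which the UB tip receives through the receptor tyrosine kinase RET and its co-receptor GFRA1. Cells left behind by the tips form the trunk and later the collecting duct, whose principal cells take up water and sodium and whose intercalated cells secrete acid or base. WNT, FGF and retinoid signals maintain the tip cells, and the UB organoid medium supplies agonists of these pathways.

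The UB organoids came from UBs of embryonic day 11 embryos that carried a Wnt11-RFP reporter, from crosses of C57BL/6 and Swiss Webster mice. They grew in Matrigel in a medium with CHIR99021, a GSK3 inhibitor that activates WNT signaling, R-spondin 1, GDNF, FGF9, the retinoid TTNPB, the BMP and TGF-beta receptor inhibitors LDN-193189 and A83-01, a JAK inhibitor and the p38 inhibitor SB202190, and were passaged repeatedly. The adult mCD samples are described in the series text and the paper's methods as cells sorted for Venus from kidneys of Hoxb7-Venus mice about 2 months old, in which the Hoxb7 promoter marks cells descending from the UB. The sample labels instead give the adult mCD samples the embryonic age and the Wnt11-RFP genotype of the organoids and call them organoids, and the series text and methods were followed here. Age, mouse line, fresh isolation against culture and the growth medium thus all differed between the groups and cannot be told apart. No source says that the 2 libraries of a group came from separate animals or cultures, so p-values measure only the spread between these libraries, which may be technical. RNA-seq on bulk cells also cannot tell fewer cells of a type from less RNA per cell.

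Depth was similar, with totals of 16759872 and 16038205 reads in adult mCD and of 14953162 and 14100815 in day 20 UB organoids, within the range of 11913613 to 24536676 over the series. The day 5 and day 10 libraries were deeper, at 22858971 to 24536676 reads, and were deposited under an earlier run of sample numbers. Where day 20 is set beside days 5 and 10, culture day thus cannot be told apart from a difference in preparation or sequencing. Levels are given as CPM, the usual per-million scaling of read counts with TMM factors, and the libraries of a group are given in the order of their replicate numbers. The limit of detection was set at 3 reads, for counting error only, which is 0.226 and 0.236 CPM in adult mCD and 0.182 and 0.198 CPM at day 20. The replicates correlated across genes with a Pearson r of 0.9953 for adult mCD and 0.9964 for day 20. The spread between replicates was unequal over the series. Its chi-square per degree of freedom, larger for a wider spread, was 4.97 in adult mCD and 2.88 at day 20. It was 2.72 in collecting duct organoids, 10.7 at day 5 and 25.4 at day 10, and the joint estimate of spread draws on all of these. In adult mCD, mitochondrially encoded genes took 9.64% and 9.86% of the reads, against 3.10% and 3.40% at day 20, and the 10 most abundant genes took 10.3% and 10.6%, against 4.38% and 4.60%.

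Calls required more than a 4-fold change and a Benjamini-Hochberg adjusted p no higher than 0.01, from the quasi-likelihood test of edgeR. Of the 24410 genes tested over the series, 3005 (12.3%) were called higher in adult mCD and 1683 (6.89%) lower, and 2999 and 1679 of these were among the 19166 genes compared. These shares are the background for the calls in every list described here. For counts with an adjusted p up to 0.05 whatever the fold, the background is 7141 genes higher and 6621 lower of the 24410. Of all calls 64.1% were higher in adult mCD, a split that moved to 50.5% when the libraries were scaled by their totals alone, which shifted the median log2 fold change of all genes by -0.443. Upper quartile factors shifted it by -0.113. For 1174 of the genes called higher the day 20 libraries were at or under 3 reads each, and for 599 of those called lower the adult libraries were. Changes of over 100-fold by the fitted value were found for 468 genes called higher and 64 called lower. A mean of at least 1000 CPM in the higher group was reached by 56 and 8 genes, respectively. The groups did not overlap for any called gene but mt-Atp6, a mitochondrial gene at 160 and 0 CPM in adult mCD and 0 in both day 20 libraries, whose call rests on adult replicate 1 (a log2 fold change of 10.53, or 0.00 without it) and was lost without either day 20 library. Of all 19166 genes compared, called or not, 16814 did not overlap between the groups, so that this trait does not set the called genes apart. At the other end, 4702 of the compared genes lay within 2-fold with an adjusted p above 0.05.

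Markers of most other kidney cells were also higher in adult mCD. All 16 genes of a proximal tubule list were called, and their summed level was 11267 and 13959 CPM against 79.1 and 86.1 CPM at day 20. All 5 measured loop of Henle markers, summing to 3480 and 3683 against 1.52 and 4.56 CPM, and all 8 endothelial markers, summing to 937 and 912 against 10.3 and 8.86 CPM, were higher as well. Of the podocyte markers 4 of 5, of the stromal markers 7 of 10, of the leukocyte markers 6 of 12 (with 1 lower) and of the red blood cell markers 4 of 5 were higher, with sums of 330 and 398, 182 and 200, 53.7 and 57.6, and 27.8 and 17.1 CPM in adult mCD. At day 20 these lists summed to 47.1 and 47.3, 16.7 and 17.1, 13.3 and 14.3, and 0.243 and 0.198 CPM. Nephron progenitor markers went both ways, with 2 of 6 higher and 2 lower and a sum of 10.5 and 14.1 CPM in adult mCD against 17.2 and 20.3 CPM at day 20. The T cell gene Cd3e was under the limit of detection in all 4. The part of these cells in any single difference was not tested, and genes of other nephron segments stand in the text under the names of their segments.

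**Figure D1:**
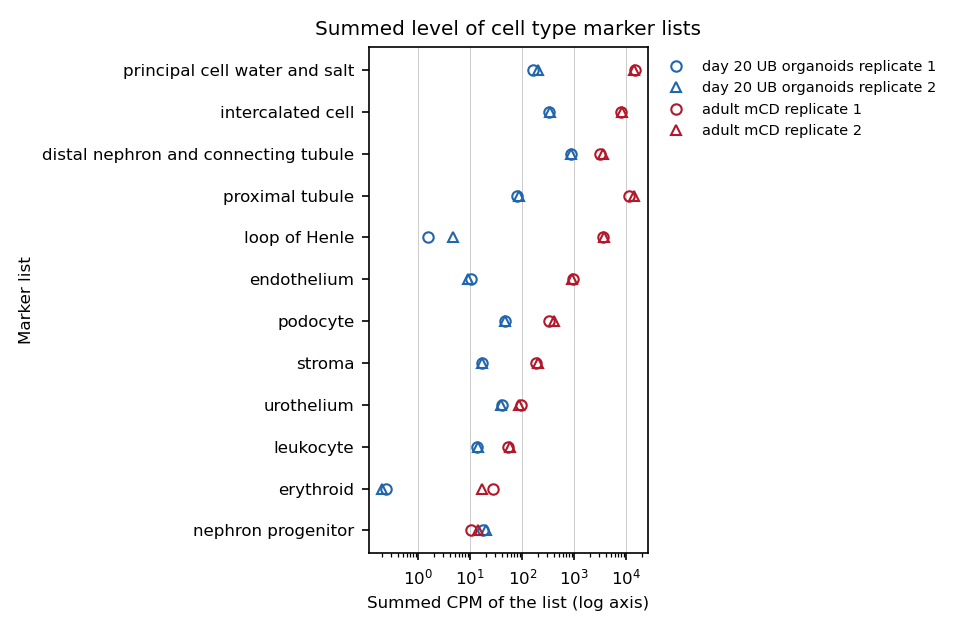
Summed CPM (log axis) of 12 marker lists in each of the 4 libraries, with day 20 UB organoids in blue and adult mCD in red, circles for replicate 1 and triangles for replicate 2. In every list but that of nephron progenitors both adult mCD libraries lie to the right of both day 20 libraries. In these lists the gap is widest for the loop of Henle, at 3480 and 3683 against 1.52 and 4.56 CPM. It is narrowest for the urothelium, at 96.0 and 84.9 against 39.9 and 39.4 CPM.

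**Figure D2:**
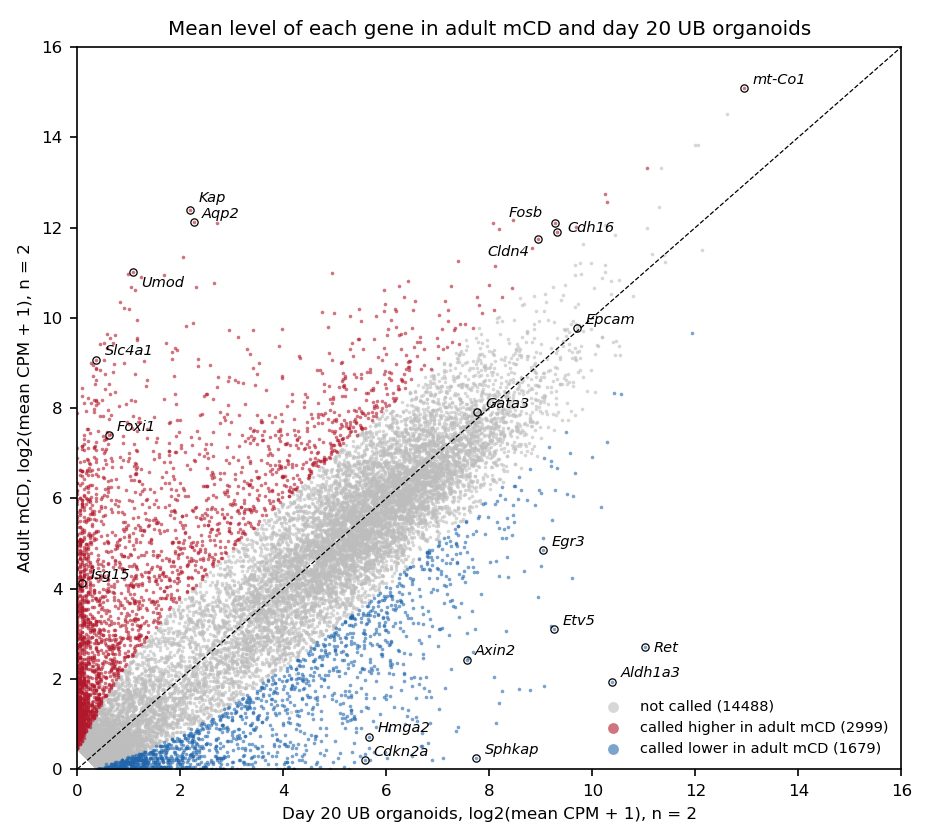
Mean level of each of the 19166 genes in day 20 UB organoids (x axis) and adult mCD (y axis) as log2(mean CPM + 1), with 2 libraries per group, genes called higher in adult mCD in red, genes called lower in blue and the others in grey. Ret, Aldh1a3 and Etv5 lie far below the dashed line of equal level, Aqp2, Umod and Slc4a1 far above it, and Epcam and Gata3 on it.

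UB progenitor genes were lower in adult mCD. Of 12 genes of the list, 9 were called lower in adult mCD and 1 higher, with a median log2 fold change of -3.35 against -0.06 over all genes tested, and their summed level was 309 and 276 CPM against 4597 and 4548 CPM. Ret (chr6:118151745-118197718, GRCm38) was at 10.0 and 0.943 CPM in adult mCD and at 2100 and 2075 CPM in day 20 UB organoids. The adult libraries differed from each other, and both lay far below the organoids, with a log2 fold change of -8.54 ± 0.45 (SE, adjusted p = 1.34e-09). It was -11.10 without adult replicate 1 and -7.71 without adult replicate 2. Such values are given wherever leaving out a library moved a called fold change by over 1.5 times, the first without replicate 1 and the second without replicate 2. Gfra1, the co-receptor, was at 69.3 and 64.4 CPM against 735 and 726 CPM (-3.45 ± 0.12).

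Transcription factors that act downstream of RET were lower as well. Etv5 was at 7.91 and 7.23 CPM in adult mCD and 638 and 591 CPM at day 20, a log2 fold change of -6.33 ± 0.14 (adjusted p = 6.67e-13). Its paralog Etv4 was at 2.64 and 0.865 against 294 and 284 CPM (-7.31, or -8.37 and -6.77 without either adult library). Sox9, which UB tip cells need to branch, stood at 23.7 and 22.5 against 256 and 259 CPM, and its partner Sox8 at 0.904 and 1.57 against 10.9 and 9.58 CPM. Both tip ligands of the WNT family were called lower, Wnt11 at 2.64 and 1.65 against 19.2 and 22.7 CPM and Wnt6 at 0.754 and 0.393 against 5.70 and 5.22 CPM. Wnt11, whose reporter marked the starting cells, had a mean of 436 CPM at day 5 and 151 CPM at day 10, so that its level at day 20 was already the lowest of the organoid time points.

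Of the remaining members, Spry1, an inhibitor of RET signaling, was at 138 and 125 against 396 and 451 CPM, less than 4-fold apart and thus not called (-1.69 ± 0.09, adjusted p = 1.20e-09). The chemokine receptor Cxcr4, at 34.7 and 32.3 against 30.5 and 29.3 CPM, was not called either (0.16 ± 0.15, adjusted p = 0.383). Lhx1, a homeobox factor of the nephric duct and of early nephrons, was the one member called higher, at 17.8 and 18.8 CPM in adult mCD and 0.485 and 1.85 CPM at day 20 (3.94, or 3.27 and 5.09 without either day 20 library). Its mean had been 85.0 CPM at day 5 and 11.5 CPM at day 10.

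Targets of the pathways that the medium activates were lower in part. Among 14 genes of the WNT and beta-catenin pathway 7 were called lower and 1 higher (median -1.93). Axin2, the feedback inhibitor that beta-catenin induces in most tissues, was at 5.12 and 3.62 CPM in adult mCD and 193 and 182 CPM in day 20 UB organoids (-5.40 ± 0.15, adjusted p = 4.74e-12). Nkd1, also a feedback inhibitor, stood at 3.77 and 2.36 against 106 and 91.9 CPM, Lef1, a nuclear partner of beta-catenin, at 4.52 and 4.17 against 70.9 and 62.1 CPM, and Sp5, a direct target, at 6.03 and 6.05 against 64.1 and 69.5 CPM. Tcf7, Rnf43 and Znrf3 were the other 3 called lower, of which Rnf43 lay close to 4-fold (-1.99 without adult replicate 2 and -1.996 without day 20 replicate 2, where it was not called). Wnt7b, a ligand of the collecting duct stalk, was the member called higher, at 53.7 and 45.8 against 7.64 and 9.25 CPM. Ccnd1 and Myc, which many signals besides WNT induce, did not differ beyond the threshold, at 401 and 391 against 452 and 441 CPM and at 85.3 and 66.6 against 51.0 and 73.7 CPM.

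Of 12 targets of FGF and ERK signaling, 7 were called lower and 1 higher (median -2.19). Dusp4, a phosphatase that ends ERK signaling, was at 18.8 and 18.1 CPM in adult mCD and 172 and 186 CPM at day 20 (-3.27 ± 0.14), and the feedback inhibitor Spry4 at 19.6 and 22.5 against 124 and 129 CPM. All 3 Spred genes, Etv1 and Dusp6 were called lower too. The AP-1 subunit Fosl1 was the one called higher, at 20.4 and 16.4 against 1.88 and 1.72 CPM, and it also belongs to the immediate early genes. Among 10 retinoic acid targets 4 were called lower and none higher (median -1.36). Stra6, the receptor through which cells take up retinol, was at 3.32 and 1.42 CPM against 470 and 414 CPM (-7.50, or -8.30 and -7.05 without either adult library). Cyp26b1, which degrades retinoic acid, stood at 17.4 and 16.3 against 87.4 and 90.7 CPM. Tgm2, also a retinoid target, had the opposite sign without passing 4-fold, at 106 and 112 against 41.4 and 42.8 CPM.

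Transcription factors of the duct lineage were mostly within the threshold. Of 19 factors 6 were called higher, 1 lower and 12 neither (median 0.90). Gata3, required for the nephric duct and the UB, was at 258 and 223 CPM in adult mCD and 206 and 226 CPM at day 20 (0.15 ± 0.08, adjusted p = 0.133). Pax2, at 171 and 146 against 312 and 305 CPM, differed by less than 4-fold. Hoxb7, whose promoter drove the reporter used for sorting, was at 71.6 and 68.2 against 145 and 151 CPM, in the same range.

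The 6 factors called higher include regulators of the mature duct. Tfcp2l1, which sets up principal and intercalated cells, was at 1311 and 1327 CPM in adult mCD and 80.6 and 107 CPM in day 20 UB organoids (3.81 ± 0.18, adjusted p = 5.80e-10). Gata2, which acts on the Aqp2 gene in adult ducts, was at 283 and 267 against 30.2 and 29.1 CPM. The epithelial factors Elf3, at 467 and 405 against 22.1 and 29.9 CPM, and Elf5, at 77.0 and 75.2 against 5.28 and 8.06 CPM, and Tfap2b, at 139 and 136 against 20.4 and 20.3 CPM, were called higher as well. Emx1 was at 31.8 and 35.4 CPM in adult mCD and not above the limit of detection at day 20, so that it was at least 169-fold higher. Its paralog Emx2, which the UB needs to invade the mesenchyme, was at 34.3 and 38.4 against 76.8 and 77.9 CPM and was not called. Sall4, the one factor called lower, was at 0 in both adult libraries but at only 0.182 and 0.463 CPM at day 20, and was not called without adult replicate 1 (-2.84), without adult replicate 2 (-2.84) or without day 20 replicate 2 (-2.16).

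General epithelial genes differed less. Of 13 genes 4 were called higher and none lower (median 0.81). Epcam was at 903 and 848 against 809 and 852 CPM (0.08 ± 0.08, adjusted p = 0.432) and Cdh1, encoding E-cadherin, at 1722 and 1496 against 1015 and 1067 CPM. Called higher were the kidney cadherin Cdh16, at 3923 and 3689 against 589 and 675 CPM, the duct claudin Cldn4, at 3543 and 3336 against 436 and 546 CPM, and the keratins Krt7, at 850 and 853 against 4.92 and 8.46 CPM, and Krt19, at 46.9 and 43.3 against 0.789 and 2.97 CPM (4.58, or 3.90 and 5.75 without either day 20 library).

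**Figure D3:**
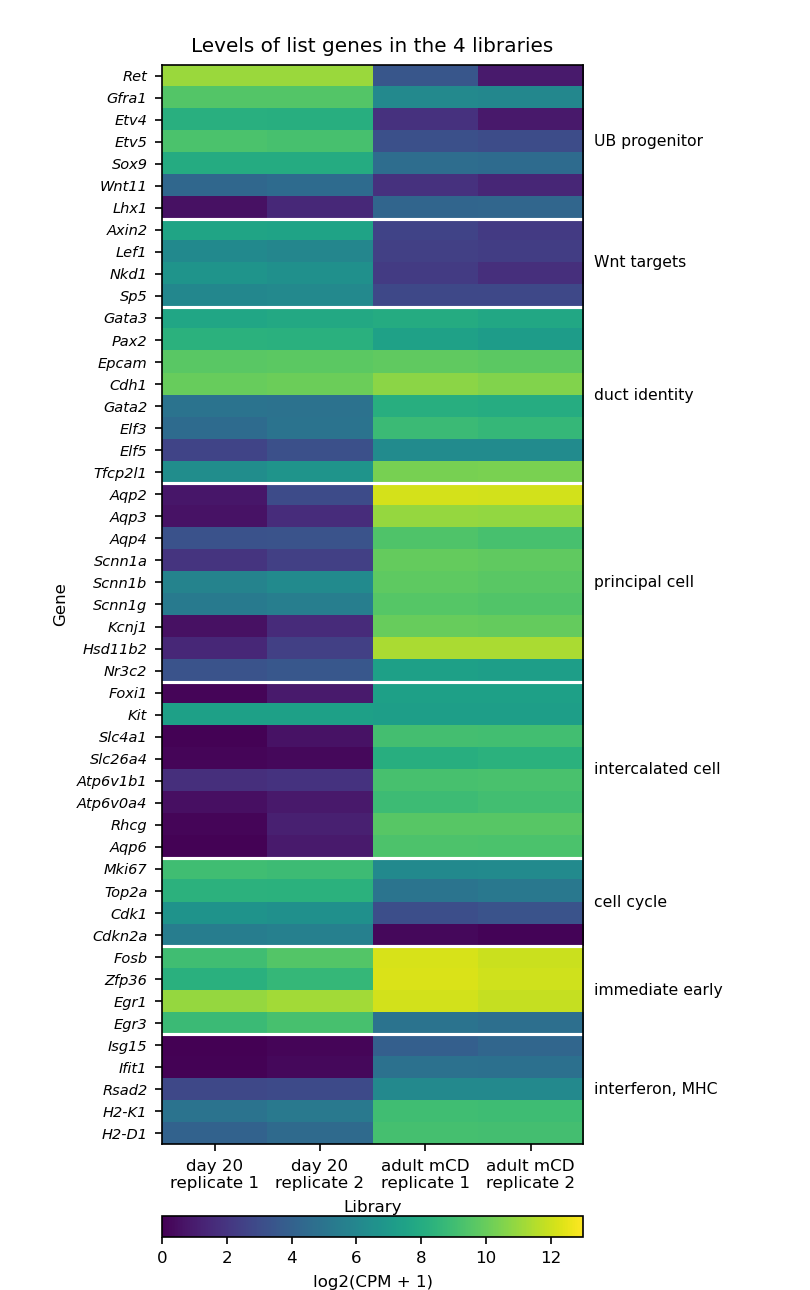
Level of 49 genes of the lists in the 2 day 20 and the 2 adult mCD libraries as log2(CPM + 1), from dark blue for 0 to yellow, grouped by list. UB progenitor and WNT target genes, Lhx1 aside, are brighter in the day 20 columns, principal and intercalated cell genes except Kit in the adult columns, and Gata3 and Epcam differ little among the 4.

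Genes for the transport of water and salt in principal cells were nearly all higher in adult mCD. Of 15 genes 13 were called higher and none lower, with a median log2 fold change of 6.16, and the list summed to 14729 and 14068 CPM against 160 and 201 CPM. Aqp2 (chr15:99579055-99584547, GRCm38), the water channel that vasopressin moves to the apical membrane, was at 4542 and 4374 CPM in adult mCD and at 0.728 and 6.87 CPM in day 20 UB organoids. Both organoid libraries lay far below the adult ones, but their ratio to each other was larger than that of the adult pair. The log2 fold change was 10.21 ± 0.45 (adjusted p = 2.10e-10), 9.34 without day 20 replicate 1 and 12.48 without replicate 2. The collecting duct organoids of the series, made by differentiating UB organoids, had a mean of 559 CPM for Aqp2, between both groups. The basolateral water channels Aqp3, at 1948 and 1891 against 0.546 and 2.18 CPM (10.44, or 9.75 and 11.65 without either day 20 library), and Aqp4, at 677 and 591 against 8.74 and 8.86 CPM (6.16 ± 0.20), were higher too.

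All 3 subunits of the epithelial sodium channel ENaC were called higher. Scnn1a, the alpha subunit, was at 976 and 904 CPM in adult mCD and 2.91 and 4.56 CPM at day 20 (7.96 ± 0.19). The beta subunit Scnn1b was at 885 and 829 against 56.1 and 72.4 CPM (3.74 ± 0.19) and the gamma subunit Scnn1g at 750 and 719 against 39.9 and 46.3 CPM (4.09 ± 0.25). On the deposited RPKM scale, which divides by gene length, the means of Scnn1a, Scnn1b and Scnn1g were 52.1, 157 and 248 in adult mCD. At day 20 they were 0.213, 12.1 and 14.95. Alpha was the lowest of the 3 on this scale in both groups. By CPM alpha was the lowest only at day 20 and the highest in adult mCD, so its rank there depends on the gene length used. Hsd11b2, the enzyme that protects the mineralocorticoid receptor from cortisol-like hormones, was at 2634 and 2573 against 1.76 and 4.56 CPM (9.68, or 9.15 and 10.49 without either day 20 library). The receptor itself, Nr3c2, was at 166 and 154 against 9.04 and 10.4 CPM, and the apical potassium channel Kcnj1 (ROMK) at 992 and 974 against 0.485 and 1.98 CPM (9.61, or 8.92 and 10.84 without either day 20 library). Fxyd4, a regulator of the sodium pump in the duct, stood at 549 and 539 against 3.34 and 4.76 CPM and the urea transporter gene Slc14a2 at 176 and 111 against 3.58 and 3.83 CPM. Of the members not called, the prostaglandin receptor Ptger4 was at 127 and 105 against 30.8 and 32.1 CPM. Avpr2, the vasopressin receptor of these cells, was at 0.151 and 0.314 CPM in adult mCD and 0 and 0.132 CPM at day 20, so that its deposited counts were near the limit of detection in both groups, also where Aqp2 was abundant.

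Targets of corticosteroid receptors were higher in part, with 3 of 10 called higher and none lower (median 1.64). Sgk1, the aldosterone-induced kinase that keeps ENaC at the membrane, was at 331 and 331 CPM in adult mCD and 24.2 and 29.4 CPM at day 20 (3.63 ± 0.10). Klf9 was at 331 and 342 against 11.3 and 12.1 CPM, and Zbtb16 was at least 169-fold higher, at 35.2 and 31.8 CPM against a level under the limit of detection. The glucocorticoid targets Fkbp5, at 98.7 and 101 against 33.1 and 26.4 CPM, and Tsc22d3, at 69.7 and 71.5 against 17.1 and 21.6 CPM, stayed under 4-fold, although Tsc22d3 was called without day 20 replicate 2 (2.04). Of the genes for the response to hypertonicity 8 of 12 were called higher and none lower (median 3.42, or 2.98 with genes not above the limit of detection set at their bound). Among them were Cryab, a small chaperone, at 321 and 310 against 3.70 and 5.82 CPM, and Slc5a3, the inositol transporter, at 291 and 304 against 75.4 and 67.8 CPM, which lay close to 4-fold (2.0 without adult replicate 2 and 1.98 without day 20 replicate 2, where it was not called). Nfat5, the transcription factor of this response, was itself at 471 and 443 against 1069 and 934 CPM and not called.

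Genes of intercalated cells were also higher, with 21 of 23 called higher and none lower (median 8.24, or 8.07 with genes not above the limit of detection set at their bound) and a sum of 7790 and 8114 against 323 and 342 CPM. Foxi1 (chr11:34204338-34208089, GRCm38), the factor that specifies these cells, was at 169 and 169 CPM in adult mCD and 0.121 and 0.925 CPM at day 20 (8.24 ± 0.30, adjusted p = 3.59e-11, or 7.44 and 9.93 without either day 20 library). The collecting duct organoids had a mean of 490 CPM for Foxi1. Markers of both intercalated cell types were present. Slc4a1, the chloride-bicarbonate exchanger AE1 of type A cells, was at 545 and 530 against 0.0607 and 0.529 CPM (10.63, or 9.86 and 12.21 without either day 20 library). Aqp6, a channel of type A cells, stood at 653 and 636 against 0.0607 and 0.925 CPM (10.25, or 9.37 and 12.48 without either day 20 library). Slc26a4, pendrin, the exchanger of type B cells, was at 285 and 310 CPM in adult mCD and not above the limit of detection in the organoids, which makes it at least 1502-fold higher. The exchanger Slc4a9 was at 514 and 554 against 0 and 0.859 CPM (10.16, or 9.20 and 13.31 without either day 20 library). Its mean in collecting duct organoids was 491 CPM, where Slc4a1 had a mean of 2.51 CPM. Oxgr1, a receptor for 2-oxoglutarate on type B cells, was at 137 and 140 CPM against 0 in both day 20 libraries, at least 696-fold higher.

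Isoforms of the proton pump subunits are shared out between cell types. The subunits restricted to intercalated and a few other cell types were high, among them Atp6v1b1 at 596 and 616 against 2.43 and 2.78 CPM (7.84 ± 0.13) and Atp6v0a4 at 475 and 525 against 0.425 and 0.859 CPM (9.51 ± 0.19). Of the 16 subunits that all cells use, 4 were called higher and none lower (median 1.43), or 1 and none with library totals alone. These were Atp6v1a, at 1303 and 1342 against 140 and 138 CPM, Atp6v1f, Atp6v0e and Atp6v1h. Atp6v0a1, the widespread counterpart of Atp6v0a4, was at 87.3 and 91.0 against 169 and 177 CPM (-0.96 ± 0.09). The members of the intercalated cell list that were not called were Spink8, at 65.5 and 80.7 against 19.4 and 21.4 CPM, and the receptor tyrosine kinase gene Kit. Kit was at 154 and 157 CPM in adult mCD and 167 and 168 CPM in day 20 UB organoids (-0.11 ± 0.09, adjusted p = 0.342). The ammonia transporter Rhcg, at 776 and 789 against 0.121 and 1.19 CPM (10.15, or 9.30 and 12.14 without either day 20 library), and the carbonic anhydrase Car2, at 1160 and 1191 against 69.3 and 72.9 CPM, were both called.

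Distal nephron and connecting tubule genes were called higher in 6 of 10 cases and lower in none (median 7.07, or 6.47 with genes not above the limit of detection set at their bound). Slc12a3, the thiazide-sensitive cotransporter of the distal convoluted tubule, was at 398 and 434 against 0 and 0.463 CPM (10.56, or 9.66 and 12.95 without either day 20 library), and the calcium channel Trpv5 at 109 and 122 against 0 and 0.264 CPM (9.32, or 8.51 and 11.10 without either day 20 library). Calb1, a calcium-binding protein of the connecting tubule that the UB also makes, was at 1198 and 1276 against 388 and 407 CPM and not called. Among the most abundant markers of other nephron segments was the proximal tubule gene Kap, at 4703 and 6022 CPM against 0.789 and 6.34 CPM (10.57, or 9.72 and 12.64 without either day 20 library). The loop of Henle gene Umod, encoding uromodulin, was at 1998 and 2123 against 0.303 and 1.92 CPM (10.83, or 10.04 and 12.50 without either day 20 library).

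The low levels of these adult genes in the organoids were unequal between the 2 day 20 libraries. For the 17 genes with a mean of at least 500 CPM in adult mCD and at most 0.2 CPM at days 5 and 10, the level was 0.0147% of that in adult mCD in day 20 replicate 1 and 0.114% in replicate 2 (medians), and replicate 2 was higher for 17 of 17. In the other direction, the 20 genes that fell most were chosen by their fold change between the groups. Their low level in adult mCD thus follows from that choice, whereas day 20 was not used to choose the 17. The level of the 20 was 0.732% of that at day 20 in adult replicate 1 and 0.239% in replicate 2 (medians). Replicate 1 was higher for 19 of 20. The origin of these traces was not tested.

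**Figure D4:**
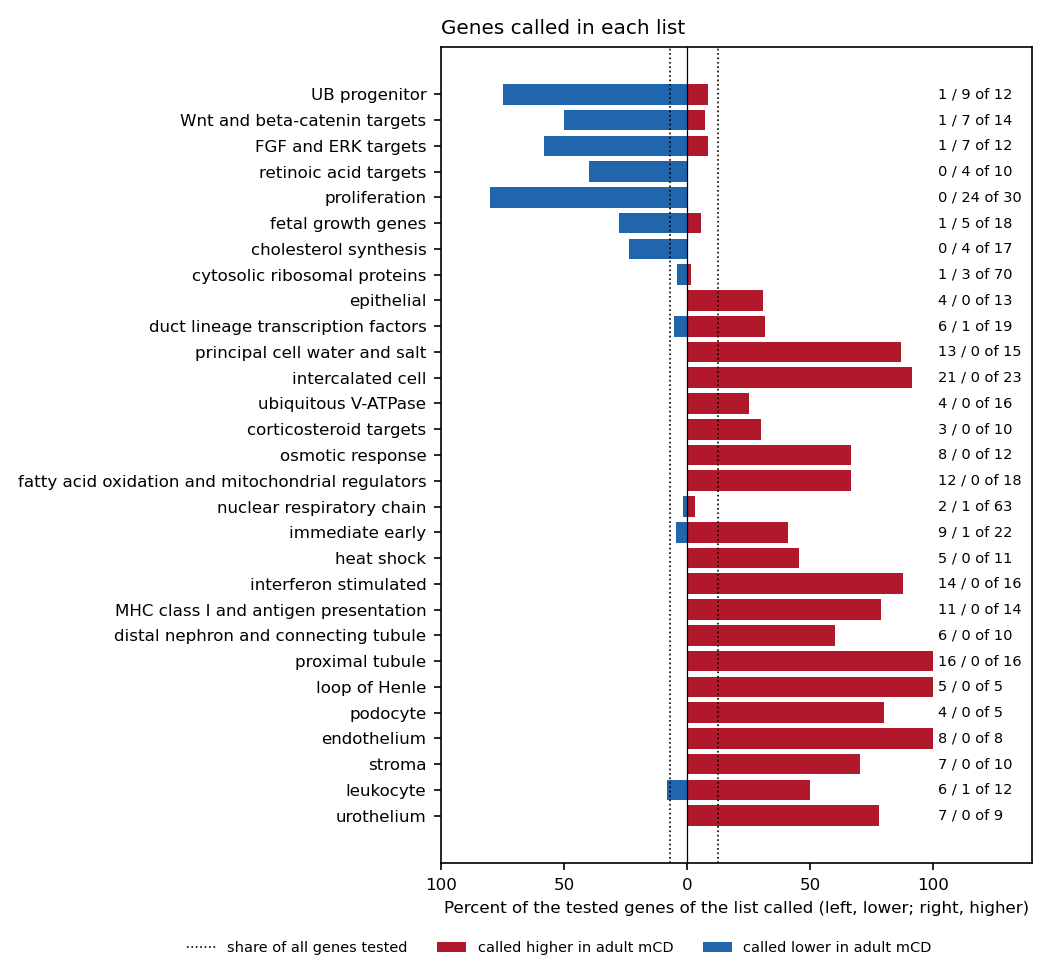
Percent of the tested genes of each of 29 lists that were called higher (red, to the right) or lower (blue, to the left) in adult mCD, with the counts higher / lower of those tested and dotted lines at the shares over all genes, 12.3% higher and 6.89% lower. The UB progenitor, WNT, FGF and proliferation lists extend to the left, and the principal cell, intercalated cell, interferon and nephron marker lists to the right.

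Proliferation genes were lower in adult mCD throughout. Of 30 genes 24 were called lower and none higher (median -2.80), and all 30 were lower with an adjusted p up to 0.05 whatever the fold. Their sum was 521 and 536 CPM against 3082 and 2903 CPM at day 20. Mki67, a protein of dividing cells, was at 70.8 and 73.3 against 516 and 481 CPM (-2.79 ± 0.11, adjusted p = 5.54e-11), Top2a, the topoisomerase of replicating cells, at 31.3 and 36.2 against 329 and 314 CPM, and the mitotic kinase Cdk1 at 7.76 and 9.04 against 103 and 92.0 CPM. Pcna, a clamp of the DNA polymerase, was at 67.2 and 71.0 against 121 and 112 CPM (-0.75 ± 0.07), whereas Cenpa, a histone of the centromere, was at 3.69 and 4.56 against 75.5 and 70.6 CPM (-4.13 ± 0.14). The day 20 sum was itself below that of day 5, which was 6081 and 5426 CPM, and that of day 10, which was 3847 and 4216 CPM.

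Inhibitors of the cell cycle were mostly not called. Of 16 genes for cell cycle exit and arrest 1 was called higher and 3 lower. Cdkn2c, at 18.6 and 19.5 against 5.46 and 3.83 CPM, was the one called higher, close to 4-fold, and its log2 fold change was 1.99 without adult replicate 1, 1.97 without adult replicate 2 and 1.79 without day 20 replicate 2, where it was not called. Cdkn2a (chr4:89274471-89294653, GRCm38), which encodes p16INK4a and p19ARF and accumulates in many cells kept in culture, was at 0.226 and 0.0786 CPM in adult mCD, at or under the limit of detection, and at 45.1 and 49.0 CPM at day 20, so that it was at least 200-fold lower. Its mean was 0.0408 CPM at day 5 and 5.80 CPM at day 10, so that the day 20 organoids held the highest level of the time course. The p53 target Cdkn1a, at 153 and 140 against 234 and 267 CPM, and Cdkn1b, at 143 and 123 against 72.1 and 76.7 CPM, were not called. E2f7 and E2f8, repressors made in S phase, were the other 2 called lower.

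Fetal growth genes were mostly within the threshold. Of 18 genes 5 were called lower and 1 higher (median -0.08), and the count higher was 0 without adult replicate 1 and 2 without day 20 replicate 2. Hmga2, a chromatin protein of fetal tissues, was at 0.904 and 0.393 against 51.5 and 48.5 CPM (-6.14, or -6.87 and -5.73 without either adult library), from means of 349 CPM at day 5 and 106 CPM at day 10. The RNA-binding protein gene Igf2bp2 stood at 9.20 and 9.12 against 57.3 and 62.4 CPM, and the imprinted gene Mest at 9.27 and 6.60 against 107 and 128 CPM. H19, an imprinted noncoding RNA, was at 2.26 and 0.393 CPM in adult mCD and at 0.182 and 12.0 CPM at day 20, where the libraries disagreed. It was not called, its log2 fold change was 2.57 without day 20 replicate 2 and below 0 otherwise, and it had a mean of 1566 CPM at day 5.

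Hox and Sox genes, which give positional and lineage identity, went both ways. Of 26 Hox genes 7 were called higher and 1 lower, against 6 and 0 without adult replicate 1, 5 and 0 without adult replicate 2 and 6 and 3 with library totals alone. The 5' genes Hoxa9, at 23.4 and 27.4 CPM against at most 0.198 CPM, at least 128-fold higher, and Hoxa10, at 19.1 and 23.1 against 0.0607 and 0.331 CPM (6.44, or 5.79 and 7.55 without either day 20 library), were higher, and Hoxd8 was at 398 and 407 against 62.9 and 67.5 CPM. None of the Hoxb genes was called, among them Hoxb9 at 261 and 239 against 880 and 896 CPM. Of 15 Sox genes 4 were called higher and 3 lower. Sox11, a progenitor factor, was at 8.37 and 6.29 against 321 and 316 CPM (-5.43 ± 0.11), while Sox17 and Sox18, factors of endothelium, were at 45.5 and 47.3 CPM against 0 in both organoid libraries and at 14.6 and 17.0 against 0.0607 and 0 CPM, beside the endothelial markers, of which 8 of 8 were higher. Of 5 Irx genes, homeobox factors of nephron segments, 4 were called higher, among them Irx1 at 24.5 and 30.9 against 0.485 and 0.463 CPM.

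Immediate early genes, which cells induce within minutes of a stimulus, were abundant in adult mCD. Of 22 genes 9 were called higher and 1 lower (median 1.45, and 7 higher and 2 lower with library totals alone), and the list summed to 35447 and 31811 CPM against 9277 and 11757 CPM. Fosb was at 4733 and 3994 CPM in adult mCD and 509 and 727 CPM at day 20 (2.82 ± 0.27, adjusted p = 5.35e-07). Atf3 stood at 3135 and 2868 against 377 and 531 CPM, Junb at 2405 and 2131 against 246 and 306 CPM, and Zfp36, whose protein destabilises cytokine messages, at 4904 and 4239 against 303 and 399 CPM (3.70 ± 0.14). Fos, Fosl1, Fosl2, Klf2 and Klf4 were the others called higher. Egr1 was at 4497 and 3678 against 1949 and 2348 CPM and not called, Egr2 was at 92.4 and 70.5 against 269 and 348 CPM and not called (-1.92), although it was called without adult replicate 1 (-2.19), without day 20 replicate 1 (-2.09), with library totals alone (-2.37) and with upper quartile factors (-2.03), and Egr3 was called lower, at 29.6 and 26.2 against 466 and 584 CPM (-4.23 ± 0.28, adjusted p = 1.49e-08). The day 20 libraries themselves lay far above the earlier organoids, whose list summed to 804 and 955 CPM at day 5 and 931 and 779 CPM at day 10. Egr3 was at a mean of 0.207 CPM at day 5 and 4.77 CPM at day 10.

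Heat shock genes were higher in 5 of 11 cases and lower in none (median 1.48). The inducible Hsp70 genes Hspa1a, at 469 and 525 against 4.31 and 5.62 CPM, and Hspa1b, at 1134 and 1217 against 44.1 and 42.4 CPM, are near-identical, and the split of reads between them is uncertain. The small chaperone Hspb1 was at 87.9 and 101 against 2.06 and 2.58 CPM (5.32 ± 0.18), Dnajb1, a partner of Hsp70, at 813 and 785 against 72.0 and 82.3 CPM, and Hsph1 at 368 and 400 against 83.1 and 80.1 CPM. The constitutive chaperones Hspa8, at 1260 and 1251 against 832 and 846 CPM, and Hsp90ab1, at 2457 and 2363 against 2680 and 2748 CPM, were not called. Promoters of 8 of the 11 genes were in the RefSeq table for GRCm38.p6, which holds 250 bases before to 50 bases after each gene start. The heat shock element GAANNTTC, searched on both strands, was in 7 of these 8, against 9.04% of the promoters of 27025 genes. The 7 are not all separate sites. Hspd1 and Hspe1 share the same interval, read on opposite strands, and the windows of Hspa1a and Hspa1b are identical. Windows of 58 bases show it in capitals in 2 of the genes called higher and in Hspd1, a chaperone of mitochondria that was not called, at 353 and 401 against 333 and 333 CPM.
Hspa1a, chr17:34972228-34972285, minus strand: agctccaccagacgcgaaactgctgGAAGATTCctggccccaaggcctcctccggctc
Hspb1, chr5:135887777-135887834, plus strand: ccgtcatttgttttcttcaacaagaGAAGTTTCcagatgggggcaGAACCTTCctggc
Hspd1, chr1:55088039-55088096, minus strand: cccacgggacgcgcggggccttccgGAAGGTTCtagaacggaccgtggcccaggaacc
The element is present in promoters of members that were called and of a member that was not, and a match of these letters is a description of the sequence, not of a bound site.

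Interferon-stimulated genes formed a group with higher levels in adult mCD. Of 16 genes 14 were called higher and none lower (median 4.002), and they summed to 513 and 485 CPM against 51.5 and 52.7 CPM. Isg15, a ubiquitin-like modifier, was at 14.2 and 18.5 CPM in adult mCD and at 0 and 0.132 CPM at day 20, at least 82.5-fold higher. Ifit1, which binds foreign RNA, was at 28.0 and 26.4 against 0.0607 and 0.198 CPM, at least 137-fold higher, and Rsad2, the antiviral enzyme viperin, at 67.3 and 68.3 against 6.01 and 6.61 CPM (3.42 ± 0.30). Irf7 and Irf9, factors that transmit the interferon signal, were at 31.7 and 26.6 against 2.67 and 3.04 CPM and at 107 and 100 against 15.3 and 13.6 CPM. Stat2, at 61.9 and 50.6 against 16.5 and 16.3 CPM, and Mx1, at 0.301 and 1.02 against 0.243 and 0.0661 CPM, were not called.

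The interferon response element GAAANNGAAA, searched on both strands, was in the promoters of 8 of the 12 list genes found in the RefSeq table, against 3.99% of the promoters of 27025 genes. The windows of 5 genes that differ in level are shown with the element, or overlapping copies of it, in capitals. Where the capitals read TTTC and not GAAA, the element lies on the other strand.
Isg15, chr4:156200862-156200921, minus strand: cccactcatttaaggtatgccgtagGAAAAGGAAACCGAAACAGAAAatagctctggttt
Ifit1, chr19:34640760-34640819, plus strand: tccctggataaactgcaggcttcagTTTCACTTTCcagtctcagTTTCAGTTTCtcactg
Oas1a, chr5:120907511-120907570, minus strand: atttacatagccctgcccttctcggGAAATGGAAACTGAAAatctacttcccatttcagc
Rsad2, chr12:26456538-26456597, minus strand: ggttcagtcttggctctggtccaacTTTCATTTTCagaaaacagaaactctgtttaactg
Stat2, chr10:128270251-128270310, plus strand: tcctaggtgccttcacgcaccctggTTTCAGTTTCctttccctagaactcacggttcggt
Oas1a, an enzyme that senses double-stranded RNA, was at 6.26 and 5.58 CPM in adult mCD and not above the limit of detection at day 20, at least 29.8-fold higher. The promoters of Isg15, Ifit1, Ifit3, Oas1a and Bst2 hold the element more than once and those of Rsad2, Stat2 and Cxcl10 once. Stat2 alone among the 5 shown was not called. For the immediate early list, the cyclic AMP response element TGACGTCA was in 2 of 18 promoters, those of Dusp1 and Btg2, against 2.03% over all genes.

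Antigen presentation genes were likewise higher, as 11 of 14 were called higher and none lower (median 3.90, or 3.80 with genes not above the limit of detection set at their bound). The class I genes H2-K1, at 516 and 498 against 30.5 and 37.5 CPM, and H2-D1, at 578 and 553 against 15.8 and 21.9 CPM, and B2m, their light chain, at 265 and 265 against 50.1 and 56.7 CPM, were called. H2 genes share sequence, so reads may be divided unevenly among them. The class II gene H2-Aa, a product of antigen-presenting cells, was at 5.20 and 9.20 CPM against 0 in both organoid libraries, beside 6 of 12 leukocyte markers that were higher. Csf1r, the macrophage receptor of that list, was at 26.1 and 30.0 against 0.0607 and 0.132 CPM.

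Genes of energy metabolism were higher in adult mCD, mostly by less than 4-fold. Of the 8 mitochondrially encoded genes measured 3 were called higher (median 1.95), or 1 with library totals alone, among them mt-Nd4 at 10030 and 10330 against 2018 and 2233 CPM. The third, mt-Atp6, was measured in a single library only. Of 63 nuclear genes of the respiratory chain 2 were called higher and 1 lower, but 60 were higher with an adjusted p up to 0.05 whatever the fold (median 1.33). For fatty acid oxidation and its regulators 12 of 18 were called higher and none lower (median 2.13), or 5 and none with library totals alone. Cpt1a, which admits fatty acids to mitochondria, was at 635 and 652 against 61.1 and 60.8 CPM (3.40 ± 0.17), the coactivator Ppargc1a at 262 and 257 against 53.6 and 57.0 CPM, and Acadm, a dehydrogenase of beta-oxidation, at 350 and 392 against 63.0 and 60.7 CPM. The proximal tubule markers, of which 16 of 16 were higher, moved in the same direction, and their part was not tested.

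Glycolysis genes went both ways, with 4 of 23 called higher and 1 lower (median 0.12). Hk2, a hexokinase of growing cells, was the one called lower, at 45.4 and 30.2 against 205 and 222 CPM, while Pfkp was at 167 and 160 against 10.7 and 14.1 CPM and Ldhb at 1359 and 1439 against 295 and 308 CPM. Of 17 cholesterol synthesis genes 4 were called lower and none higher, or 2 and none with the size factors of DESeq2 (RLE), and 15 were lower with an adjusted p up to 0.05 whatever the fold (median -0.88). Lss and Dhcr7, both enzymes of the pathway, were among these 4. Of 70 cytosolic ribosomal protein genes 3 were called lower and 1 higher, or 8 and 1 with library totals alone and 3 and 0 without adult replicate 1 or without day 20 replicate 1, and 66 were lower with an adjusted p up to 0.05 whatever the fold (median -0.91). Rpl29 was at 14.2 and 13.2 against 138 and 150 CPM and Rps3a1 at 55.3 and 57.3 against 457 and 486 CPM, but these genes have many processed copies with which they share reads.

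Matrix and junction genes went both ways. Of 38 collagens 14 were called higher and 6 lower, beside 7 of 10 stromal markers that were higher, whose part was not tested. The basement membrane chains Col4a1, at 1185 and 1105 against 131 and 162 CPM, and Col4a4, at 913 and 864 against 25.3 and 30.8 CPM (4.98 ± 0.18), were higher. So were collagens of interstitial matrix, among them Col6a1 at 11.3 and 12.7 against 1.76 and 1.92 CPM (2.62 without day 20 replicate 1, where it was not called) and Col6a2 at 9.12 and 9.74 against 0.850 and 0.991 CPM. The chains of collagen IX, found in cartilage, were lower, with Col9a3 at 0.678 and 0.157 against 101 and 104 CPM (-7.75, or -8.99 and -7.16 without either adult library). Lama1, a laminin chain of embryonic basement membranes, was at 46.7 and 42.5 against 624 and 562 CPM (-3.73 ± 0.18) and Lamc1 at 330 and 302 against 1555 and 1463 CPM. Lama3, a chain of mature epithelia, was at 37.9 and 37.2 against 1.15 and 0.595 CPM. Of 16 claudins, which set the permeability of tight junctions, 8 were called higher and 3 lower. Besides Cldn4, those called higher include Cldn2, at 192 and 219 against 0.850 and 1.06 CPM, and Cldn10, at 98.3 and 108 against 0.546 and 0.661 CPM, claudins of the proximal tubule and the loop of Henle. Cldn5, the claudin of endothelium, was at 36.2 and 34.3 CPM against 0 in both organoid libraries, at least 178-fold higher. Proximal tubule, loop of Henle and endothelial markers were higher in 16 of 16, 5 of 5 and 8 of 8 cases, and their part was not tested. Cldn6, a claudin of embryonic epithelia, was at 7.61 and 5.74 against 102 and 124 CPM (-4.07 ± 0.14), whereas Cldn8, a claudin of the distal nephron and duct, was at 349 and 338 against 218 and 249 CPM and not called.

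Potassium channels and solute carriers were tested as whole families. Of 77 potassium channel genes 23 were called higher and 10 lower. The basolateral channel genes Kcnj10, at 440 and 424 against 0.182 and 0.727 CPM (9.76, or 9.12 and 10.85 without either day 20 library), and Kcnj16, at 745 and 780 against 6.07 and 9.38 CPM (6.62 ± 0.17), whose products form one channel in distal tubule and duct, were higher together. Kcnq1, at 221 and 220 against 5.95 and 6.48 CPM, and its accessory subunit Kcne1, at 262 and 266 against 0.850 and 0.661 CPM, were also higher. Kcnn4, a calcium-activated channel, was lower, at 2.11 and 1.89 against 92.4 and 95.5 CPM (-5.52 ± 0.15). Of 298 solute carriers 101 were called higher and 14 lower, beside 16 of 16 proximal tubule and 5 of 5 loop of Henle markers that were higher, whose part in this count was not tested. Among the 14 solute carriers called lower were the glutamine transporter Slc38a1, at 5.50 and 4.64 against 202 and 206 CPM (-5.32 ± 0.12), and the cystine transporter Slc7a11, at 2.41 and 3.30 against 77.8 and 81.8 CPM. Atp1b1, the beta subunit of the sodium pump, was higher in adult mCD, at 4452 and 4293 against 248 and 287 CPM (4.03 ± 0.15).

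Genes of tubular injury went both ways. Of 10 genes 5 were called higher and 1 lower. Spp1, osteopontin, was at 1961 and 1993 against 1.21 and 3.17 CPM (9.80, or 9.27 and 10.61 without either day 20 library), and Clu, clusterin, at 1039 and 1068 against 34.6 and 42.4 CPM. Havcr1 (KIM-1), which injured proximal tubule makes, was at 3.39 and 5.50 CPM against 0 in both organoid libraries. Lcn2 (NGAL) was the one called lower, at 146 and 109 against 760 and 747 CPM (-2.57 ± 0.25).

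The genes that moved most were chosen by their fitted fold change among called genes with a mean of at least 50 CPM over the 4 libraries, and their values are a description. Of the 20 that rose most, 5 were in the proximal tubule list, 3 in the intercalated cell list, 2 in the loop of Henle list and 1 in the distal list, and 7 did not exceed the limit of detection at day 20. Slc7a13, a proximal tubule transporter at 217 and 255 CPM against 0 in both organoid libraries, headed them and was at least 1191-fold higher. Of the 20 that fell most, 3 were in the UB progenitor list. Sphkap, which anchors protein kinase A, was at 0.226 and 0.157 CPM in adult mCD and 225 and 203 CPM at day 20, at least 909-fold lower. The WNT receptor gene Fzd10 was at 0.301 and 0.0786 against 138 and 136 CPM (-9.12, or -10.08 and -8.62 without either adult library), and Aldh1a3, which makes retinoic acid, at 5.12 and 0.550 against 1314 and 1368 CPM (-8.84, or -11.18 and -8.04 without either adult library). The cyclin gene Ccnd2 was among the most abundant of the genes called lower, at 59.9 and 49.98 against 1188 and 1118 CPM (-4.39 ± 0.11).

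Xist, the noncoding RNA made from the inactive X chromosome, was also among the 20, at 1.96 and 0.0786 CPM in adult mCD and 358 and 200 CPM at day 20 (-7.998, or -11.11 and -7.14 without either adult library). Xist had a mean of 2292 CPM at day 5 and 2124 CPM at day 10. The Y-linked gene Ddx3y was at 120 and 121 against 73.2 and 87.0 CPM, in both groups above the limit of detection, whereas Xist was near 0 in adult mCD. The sex of the animals is not in the labels used here. The part of sex in any difference was not tested.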

How the data were processed

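RNA-seq of 10 libraries in 5 groups was deposited as a single table. By the paper's methods, the reads were aligned with STAR to the mouse genome (GRCm38) and counted per gene of GENCODE M24 in Partek Flow with an expectation-maximization model. The authors deposited whole-number counts. They also deposited RPKM values, used here to compare levels between genes, and a scaled signal (TMM) that was not used. The submitters' processing notes name FastQC 0.11.8, cutadapt 2.5, Trimmomatic 0.36, STAR and edgeR 3.28.1, and Partek Flow is not among the tools listed. Which account describes the deposited counts cannot be told here. Sample labels and published methods name different RNA and library kits. The library is stated as stranded in the methods only, so reads of overlapping genes may be shared.

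Counts were tested with edgeR 4.0.16 (R 4.3.3): genes with at least 10 counts summed over the 10 libraries, TMM factors, group means, quasi-likelihood test, prior count 1. The dispersion was 0.00831 with 5 residual degrees of freedom. Calls needed an adjusted p of at most 0.01 and over 4-fold. Errors of log2 fold changes are SE, and each group had n = 2. Positions came from GENCODE M21 by gene ID (99.7% found), and 24 symbols occur more than once. Named genes were those of the gene lists, the 20 called genes that rose and the 20 that fell most at a mean of at least 50 CPM, and the most abundant called genes. The genes compared and the lists were chosen with earlier results of these data known. The test was checked on simulated counts in which few genes changed, all well above 0 and equally in both directions. That check does not cover genes near 0 or a one-sided split of changes like that found here. Alternatives were other scalings, filters, thresholds, prior count 5, DESeq2 1.42.0, limma 3.58.1, the 4 libraries alone, a replicate term and each library left out. Some list members are counted but not reported by name here.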

Additional observations from a re-analysis of the deposited data

How the results depend on the processing

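Against 3005 genes called higher and 1683 lower, leaving out 1 library gave 2646 to 2721 higher and 1482 to 1562 lower. Looser thresholds raised both counts by over 1.5 times: 7141 and 6621 with an adjusted p up to 0.05 whatever the fold, and 4556 and 3328 with one up to 0.01 and more than 2-fold. Over the remaining alternatives the counts ran from 2469 to 3204 higher and from 1292 to 2420 lower, within 1.5 times of those reported, with 2720 and 1415 by DESeq2, 3204 and 1960 by limma and 2469 and 2420 with library totals alone. Of 3485 values of 194 named genes, 3383 kept their direction and their side of the threshold, 42 (17 genes) lost the call and 49 gained it, mostly at looser thresholds, and 11 (7 genes) turned sign. None of these 7 genes was called. With library totals alone, which shift all genes by -0.443, the log2 fold changes became -0.29 for Cxcr4, -0.38 for Epcam, -0.30 for Gata3, -0.28 for Hspd1 and -0.17 for Myc. With upper quartile factors Epcam was at -0.04. On leaving out 1 library, Epcam ranged from -0.04 to 0.11, Gata3 from -0.02 to 0.24, H19 from -3.81 to 2.57 and Cd3e from -1.15 to 0.79. The causes were not tested.

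Over all genes, same-numbered libraries of both groups did not deviate together (correlation of deviations from the group means, -0.0113 over 24410 genes). With 2 libraries per group this cannot exclude that libraries with the same number were handled together. With a replicate block 2927 genes were called higher and 1673 lower, and no named gene changed its call.

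With 2 libraries per group the spread rests on 5 residual degrees of freedom shared by all groups, and where 1 library is left out the lone library is assumed to vary like the others. A fit to the 4 libraries alone called 2992 genes higher and 1656 lower. Fold changes of genes near 0 in 1 group depend on the prior count and on traces in single libraries, which is why they are given with each library left out or as bounds.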
